A study of Mus musculus with 10 samples.

Results

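The 31 genes described here encode the enzymes that write and erase lysine acetylation and DNA methylation. They are 9 lysine acetyltransferases (Ep300, Crebbp, Kat2a, Kat2b, Kat5, Kat6a, Kat6b, Kat7 and Kat8), 11 zinc-dependent histone deacetylases (Hdac1 to Hdac11), 5 sirtuins (Sirt1, Sirt2, Sirt3, Sirt6 and Sirt7), 3 DNA methyltransferases (Dnmt1, Dnmt3a and Dnmt3b) and 3 TET enzymes (Tet1, Tet2 and Tet3). They were taken by gene symbol from the deposited table, which held all 31 of them among its 28165 genes, and all 31 were among the 15718 genes tested. The study profiled mRNA of aortic smooth muscle cells from mouse embryos at embryonic day 15.5, with 5 libraries from Eln-/- embryos, which lack both working copies of the elastin gene, and 5 from Eln+/+ embryos. All embryos came from crosses of Eln+/- mice and, in both groups, carried Acta2-GFP, a reporter under the promoter of smooth muscle actin, and no treatment was given. Cells were sorted from collagenase-digested aorta as GFP-positive, negative for the endothelial protein CD31 and negative for the dead-cell dye DAPI. The labels do not say how the Eln allele was made, how many embryos stand behind a library or whether replicates are separate embryos, so p-values measure only how these libraries vary, and that spread can be technical.

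Lysine acetyltransferases transfer acetyl groups from acetyl-CoA to histone tails and other proteins, which loosens chromatin and recruits bromodomain proteins at active genes. Zinc-dependent deacetylases and the NAD-dependent sirtuins remove the mark. Dnmt3a and Dnmt3b place methyl groups on CpG sites, Dnmt1 copies the pattern onto new DNA during replication, and the TET enzymes oxidise 5-methylcytosine as the first step of its removal. In vascular smooth muscle, Ep300, class II deacetylases and Tet2 are known for effects on contractile gene expression. The libraries report transcript levels of these enzymes and carry no measurement of acetylation, methylation or enzyme activity.

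No enzyme gene passed the threshold between Eln-/- and Eln+/+ cells. By edgeR's quasi-likelihood test with Benjamini-Hochberg adjustment over all genes tested, 0 of the 31 had an adjusted p under 0.05 (each adjusted p was 1.00), and 0 had an unadjusted p under 0.05. Across all genes the same threshold called 0 (0.00%), and 81 genes (0.515%) had an unadjusted p under 0.05. Adjusted calls numbered 6 genes (0.0392%) with DESeq2, 2 (0.0127%) with limma-voom and 7 (0.0445%) with limma-voom weighted by sample quality, and none of these was one of the 31. DESeq2 gave an adjusted p for 15320 genes, and none for Tet2. No enzyme gene had all its Eln-/- libraries above or all below its Eln+/+ libraries, against 48 (0.305%) of the genes tested, 22 higher (0.140%) and 26 lower (0.165%). A missed threshold at this spread does not show equal levels. For a log2 fold change, the standard error (SE) had a median of 1.00 over the 31 genes, from 0.45 to 2.12, and 1.02 over all genes tested.

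The libraries differed from each other in ways that genotype does not describe. Total counts were 26951681 to 63866346 per library. Counts above 0 were found for 15089 to 15925 genes in Eln-/- replicates 4 and 5 and Eln+/+ replicate 1, called the gene-poor libraries below, and for 18157 to 22951 genes in each of the other 7. In those 3 libraries 26, 27 and 25 of the 31 enzyme genes were detected, and 29 to 31 were detected in each of the others. A count of 0 still allows up to 3 counts, or 0.218, 0.113 and 0.198 CPM (counts scaled to a library of 1000000) in those 3 libraries in the same order, and this limit covers counting error only. The genotype check held in every library, with 36, 1, 0, 1 and 0 Eln counts in Eln-/- replicates 1 to 5, against 2409, 105866, 8603, 49878 and 31530 in Eln+/+ replicates 1 to 5 (log2 fold change -12.19, SE 1.64, edgeR adjusted p = 0.152). Summed markers of smooth muscle (10 of 10 listed genes in the table) were at 1223 to 4278 CPM in Eln-/- and 1163 to 2771 CPM in Eln+/+. Acta2, the actin whose promoter drives the reporter, was at 601 to 1742 CPM in Eln-/- and 473 to 1195 CPM in Eln+/+, while the myosin Myh11 reached 119 and 34.5 CPM and was as low as 0.0377 and 1.47 CPM in the same order of genotypes. Pecam1, which encodes CD31, was at 0 to 3.41 CPM in Eln-/- and 0 to 7.70 CPM in Eln+/+, and the leukocyte integrin Itgam was at 0 in every library. The 8 endothelial markers summed to 2.45 to 35.3 CPM in Eln-/- and 1.32 to 56.8 CPM in Eln+/+, and the 7 leukocyte markers to 0 to 8.06 and 0 to 9.31 CPM in the same order of genotypes. Fibroblast markers (8 of 8) summed to 792 to 15398 CPM in Eln-/- and 1467 to 9199 CPM in Eln+/+, and erythroid markers (7 of 7) to 22.3 to 5157 CPM in Eln-/- and 331 to 18883 CPM in Eln+/+. The highest fibroblast sum, in Eln-/- replicate 1, was mostly collagen, with Col1a1 at 9699 and Col3a1 at 3300 CPM. Dcn was at 1214, Pdgfra at 95.5 and Tcf21 at 4.90 CPM in that library. These genes, and also Lum and Dpt of the same list, had higher values in some other library. Pi16, likewise a listed fibroblast marker and not a collagen, had its maximum in Eln-/- replicate 1, with 183 CPM. Its next highest value, 38.6 CPM, was in Eln+/+. Cardiomyocyte markers (7 of 7) reached 117 CPM in Eln-/- and 248 CPM in Eln+/+, glial and neuronal markers (7 of 7) 48.7 and 115 CPM, and epithelial markers (4 of 5) 18.5 and 8.76 CPM. In bulk RNA, fewer cells of a type and less RNA per cell cannot be told apart, and the part of other cell types in the values below was not tested.

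Promoters of the enzyme genes differed widely in CG dinucleotides, the substrate of the DNA methyltransferases. RefSeq promoter windows of 300 bases (GRCm38.p6, 250 bases before to 50 after each annotated start) were matched for 27 of the 31 genes, with 41 windows in all. The letters CG, which read the same on both strands, occurred in 40 of these windows and in 94.6% of all 32851 windows, and at least 20 times in 22 of the 41 (53.7%) and in 26.5% of all windows. Taking for each gene its window with the most CG, 63.0% of the 27 matched enzyme genes and 59.1% of the 10031 tested genes with a window held at least 20, with a median of 22.0 in both. Only part of the 15718 tested genes had a window, so no difference is read from these shares. The range among enzyme gene windows was 0 to 57. Hdac2, an enzyme gene detected in all 10 libraries, and Hdac9, detected in 5, are shown because they lie far apart in this range, with CG in capitals. No relation between CG and detection is read from this pair, as Hdac8, with 6 CG in its window, was detected in 9 libraries. The Hdac2 window (chr10:36974294-36974593, plus strand) holds 36 CG, and the Hdac9 window (chr12:34917046-34917345, minus strand), which covers 1 of the annotated Hdac9 starts, holds 0.
Hdac2: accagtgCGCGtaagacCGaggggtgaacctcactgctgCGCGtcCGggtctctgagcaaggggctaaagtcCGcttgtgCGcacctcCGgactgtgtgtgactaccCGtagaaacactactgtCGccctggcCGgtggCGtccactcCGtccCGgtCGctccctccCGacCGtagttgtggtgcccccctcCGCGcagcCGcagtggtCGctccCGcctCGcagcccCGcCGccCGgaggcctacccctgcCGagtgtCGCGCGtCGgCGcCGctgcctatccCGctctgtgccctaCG
Hdac9: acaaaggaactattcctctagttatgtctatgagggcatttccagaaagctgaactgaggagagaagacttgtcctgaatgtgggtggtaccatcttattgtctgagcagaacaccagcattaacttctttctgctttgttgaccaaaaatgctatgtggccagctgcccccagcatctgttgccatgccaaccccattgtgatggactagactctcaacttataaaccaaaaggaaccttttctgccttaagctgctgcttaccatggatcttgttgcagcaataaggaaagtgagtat
Which of the annotated starts was used cannot be read from counts per gene.

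Of the 7 classes, class I deacetylases had the highest mean level and TET enzymes the lowest. Levels between genes were compared as CPM per kilobase (kb) of annotated exon. The summed level of class I deacetylases was 62.1 ± 26.1 CPM per kb in Eln-/- and 66.6 ± 19.4 CPM per kb in Eln+/+ (SD, n = 5 each, here and below). Acetyltransferases followed at 19.8 ± 13.6 in Eln-/- and 21.1 ± 9.01 CPM per kb in Eln+/+, and sirtuins at 16.6 ± 3.05 and 15.6 ± 2.91 CPM per kb. Acetyltransferases and sirtuins did not differ from each other beyond their spread, and class I deacetylases were above both in every library. Class IIb and IV deacetylases summed to 6.89 ± 4.68 CPM per kb in Eln-/- and 5.75 ± 3.88 in Eln+/+, DNA methyltransferases to 4.58 ± 4.73 and 3.99 ± 2.52, and class IIa deacetylases to 2.58 ± 2.01 and 1.69 ± 0.837. TET enzymes summed to 0.803 ± 1.28 CPM per kb in Eln-/- and 0.908 ± 0.670 CPM per kb in Eln+/+. In each class the range of the 5 Eln-/- libraries overlapped that of the 5 Eln+/+ libraries.

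**Figure D1:**
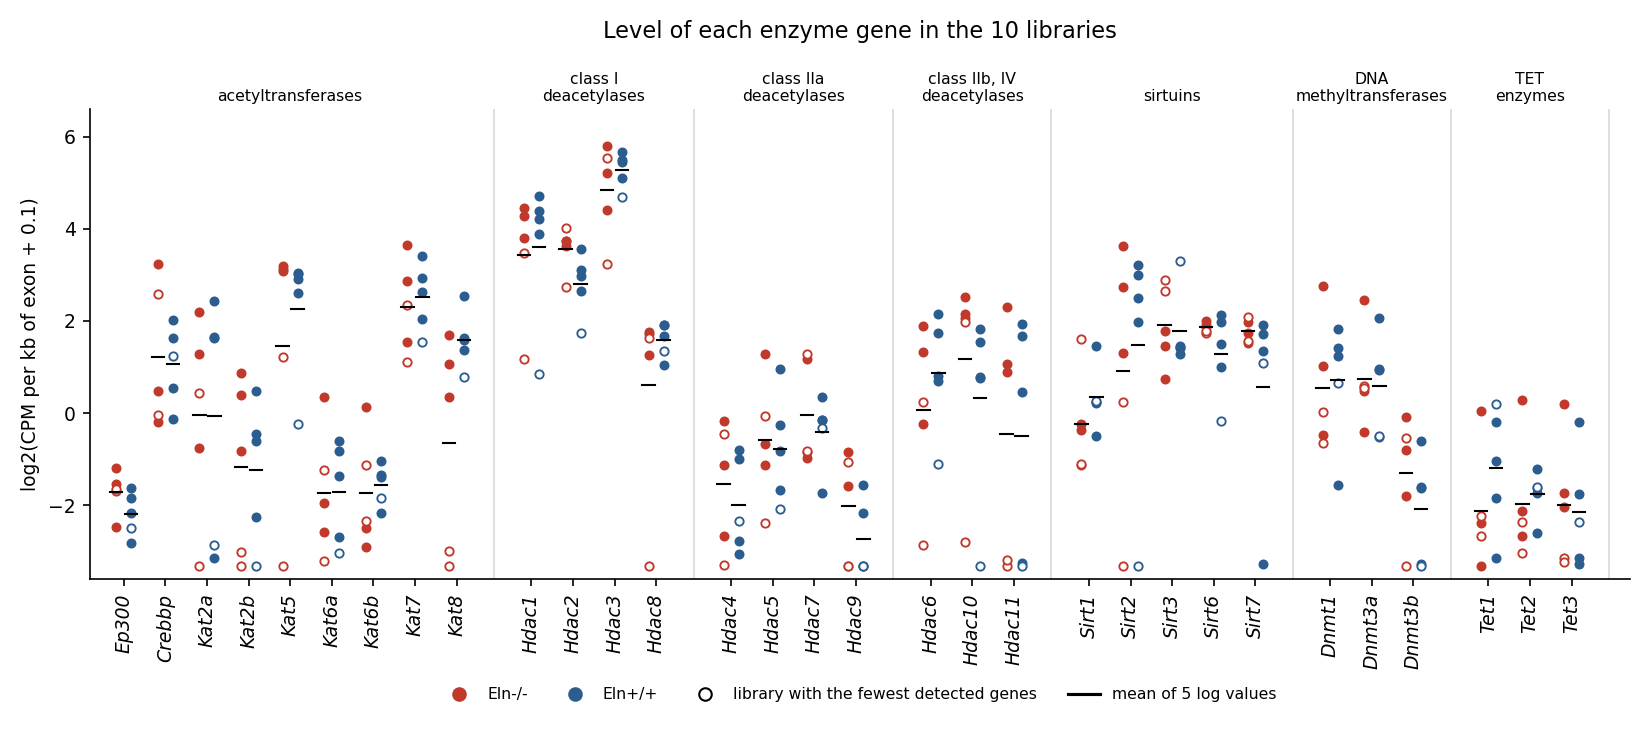
Level of each of the 31 enzyme genes in each library, as log2 of CPM per kb of exon plus 0.1 (vertical axis), grouped by class along the horizontal axis. Red points are Eln-/- and blue points Eln+/+ libraries, open points are the 3 gene-poor libraries (those with the lowest numbers of detected genes), and black bars are means of the 5 log values. The points of the genotypes overlap for every gene, and most points at the bottom, where the count was 0, are open.

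Among acetyltransferases, Kat7 (Hbo1, which acetylates histone H3 and H4 and acts at replication origins) had the highest mean level per kb, at 6.05 CPM per kb over all libraries. The locus is chr11:95274259-95310246 (minus strand, mm10, as for all positions below). Kat7 was at 69.2, 39.7, 15.5, 27.4 and 11.4 CPM in Eln-/- replicates 1 to 5, against 15.5, 58.5, 22.1, 41.8 and 33.6 CPM in Eln+/+ replicates 1 to 5. Low and high libraries were mixed between genotypes, and the log2 fold change of Kat7 was -0.07 (SE 0.59). Kat5 (Tip60, of the NuA4 complex) was next at 5.86 CPM per kb, which is within the spread of Kat7.

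Kat8 (Mof, the main acetyltransferase of histone H4 lysine 16) had the smallest edgeR p of the acetyltransferases. The gene maps to chr7:127912516-127925837 (plus strand). Its levels were 5.79, 9.06, 3.41, 0.0726 and 0 CPM in Eln-/- replicates 1 to 5, against 4.69, 7.16, 16.6, 8.62 and 8.36 CPM in Eln+/+ replicates 1 to 5. In 3 of 5 Eln-/- libraries Kat8 was below every Eln+/+ library, and 1 Eln+/+ library was above every Eln-/- library. Shares of all genes tested with such partial separations were not computed, here and below. The log2 fold change of Kat8 was -1.30 (SE 1.31, unadjusted p = 0.340, edgeR adjusted p = 1.00). The lowest Eln-/- values came from replicates 4 and 5, where few genes were detected, and without the 3 gene-poor libraries the log2 fold change was -0.71. limma-voom gave -3.31 with an unadjusted p of 0.0394 and an adjusted p of 1.00, where 1.71% of all genes had an unadjusted p under 0.05. Exons of Kat8 overlap Prss8 on the other strand over 4.22% of their bases, and Prss8 had 0 or 1 count in each library but Eln-/- replicate 3, which had 52.

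The paired coactivators Ep300 and Crebbp, acetyltransferases that act at enhancers, had positive fold changes. Ep300 averaged 3.11 ± 1.31 CPM in Eln-/- cells, against 1.84 ± 1.04 CPM in Eln+/+ cells (log2 fold change 0.76, SE 0.84). Crebbp averaged 49.4 ± 52.2 CPM in Eln-/- cells, against 30.8 ± 16.9 CPM in Eln+/+ cells, with 127 and 80.2 CPM in Eln-/- replicates 1 and 4 and 10.6 to 53.2 CPM in the other 8 libraries. Its log2 fold change of 0.68 was -0.05 without Eln-/- replicate 1. Kat2a (Gcn5) and Kat2b (Pcaf) are the paralogous enzymes of the SAGA and ATAC complexes. Means in Eln-/- and Eln+/+ were 5.95 ± 6.19 and 7.93 ± 7.84 CPM for Kat2a, 3.36 ± 3.74 and 2.52 ± 2.48 CPM for Kat2b, and 19.9 ± 14.9 and 21.2 ± 10.8 CPM for Kat5. The paralogs Kat6a (Moz) and Kat6b (Morf) acetylate histone H3. Kat6a was at 3.17 ± 4.37 CPM in Eln-/- cells, against 2.55 ± 2.19 CPM in Eln+/+ cells, and Kat6b at 5.27 ± 6.79 and 4.26 ± 1.76 CPM. The higher Eln-/- mean of Kat6b came with 16.8 CPM in Eln-/- replicate 1, while 3 of 5 Eln-/- libraries were below every Eln+/+ library. Its log2 fold change was 0.31 (SE 0.99) with all libraries and -0.85 without that one. With limma-voom weighted by sample quality it was -1.64 (SE 0.65, unadjusted p = 0.0291, adjusted p = 0.668). In that fit 6.51% of all genes had an unadjusted p under 0.05, and so did 2 of the 31 enzyme genes, Kat6b and Hdac2. In all, 5 of the 9 acetyltransferases had positive fold changes, with a median of 0.31, and the median over all genes tested was 0.02. Without Eln-/- replicate 1 the class turned, with 1 of 9 positive and a median of -0.55. Exons of Kat5 overlap Rnaseh2c on the other strand over 12.1% of their bases, and whether counting used the strand is not known. Kat5 was lowest in Eln-/- replicate 4 (0 CPM) and Eln+/+ replicate 1 (2.65 CPM). Rnaseh2c had its highest values there, at 310 and 264 CPM, against 40.9 to 219 CPM in the other libraries. Whether Rnaseh2c reads had a part in the Kat5 values was not tested.

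Of the class I deacetylases, Hdac1 and Hdac2 are catalytic subunits of the Sin3, NuRD and CoREST corepressor complexes, Hdac3 is that of the NCoR complex, and Hdac8 acts outside them. Hdac3 led the class in 9 of 10 libraries and all 31 genes on average, at 36.8 CPM per kb. Its locus is chr18:37935844-37955016 (minus strand). Hdac3 was at 86.4, 150, 224, 38.1 and 187 CPM in Eln-/- replicates 1 to 5, against 104, 138, 181, 177 and 207 CPM in Eln+/+ replicates 1 to 5. The highest and the lowest library were both Eln-/-, and the log2 fold change of Hdac3 was -0.23 (SE 0.49). Hdac1, at 47.1 ± 26.6 CPM in Eln-/- cells, against 56.3 ± 31.5 CPM in Eln+/+ cells, was lowest in Eln-/- replicate 4 (7.41 CPM) and Eln+/+ replicate 1 (5.82 CPM). Hdac8, an X-linked deacetylase of the cohesin subunit Smc3, was at 11.4 ± 6.64 CPM in Eln-/- cells, against 14.3 ± 3.59 CPM in Eln+/+ cells, with 0 counts in Eln-/- replicate 4 only.

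Hdac2, the close relative of Hdac1 in the same complexes, had the smallest edgeR p of all 31 genes and the smallest SE. The locus is chr10:36974544-37001889 (plus strand). Its levels were 59.3, 59.2, 55.1, 29.3 and 71.8 CPM in Eln-/- replicates 1 to 5, against 14.5, 52.9, 38.0, 27.5 and 34.7 CPM in Eln+/+ replicates 1 to 5. In 4 of 5 Eln-/- libraries Hdac2 was above every Eln+/+ library, and Eln-/- replicate 4 was the exception. The share of all genes tested with 4 of 5 libraries so placed was not computed, for Hdac2 or for Hdac10 below. The log2 fold change of Hdac2 was 0.71 (SE 0.45, unadjusted p = 0.140, edgeR adjusted p = 1.00). Its sign was positive in all 18 alternatives run, at 0.53 to 0.94 when single libraries were left out and 0.62 without the 3 gene-poor libraries. With limma-voom weighted by sample quality it was 0.81 (SE 0.23) with an unadjusted p of 0.00536 and an adjusted p of 0.475, in a fit where 6.51% of all genes had an unadjusted p under 0.05. The 18 alternatives reuse the same libraries, and Kat8, Hdac10, Sirt6 and Dnmt3b also kept their signs in all of them.

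Within class I, Hdac2 made up 14.7% to 36.2% of the CPM per kb in Eln-/- libraries (median 21.0%) and 7.74% to 17.5% in Eln+/+ libraries (median 10.3%), so that the ranges overlapped between 14.7% and 17.5%. The scaling of a library cancels out in this share. Hdac3 made up 35.7% to 66.0% in Eln-/- and 50.5% to 77.6% in Eln+/+, and Hdac1 11.9% to 36.5% and 5.13% to 32.8%. Hdac8 made up at most 5.49% in Eln-/- and at most 7.42% in Eln+/+. Since Hdac2 was singled out by its p, its share is a description and was not tested.

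**Figure D2:**
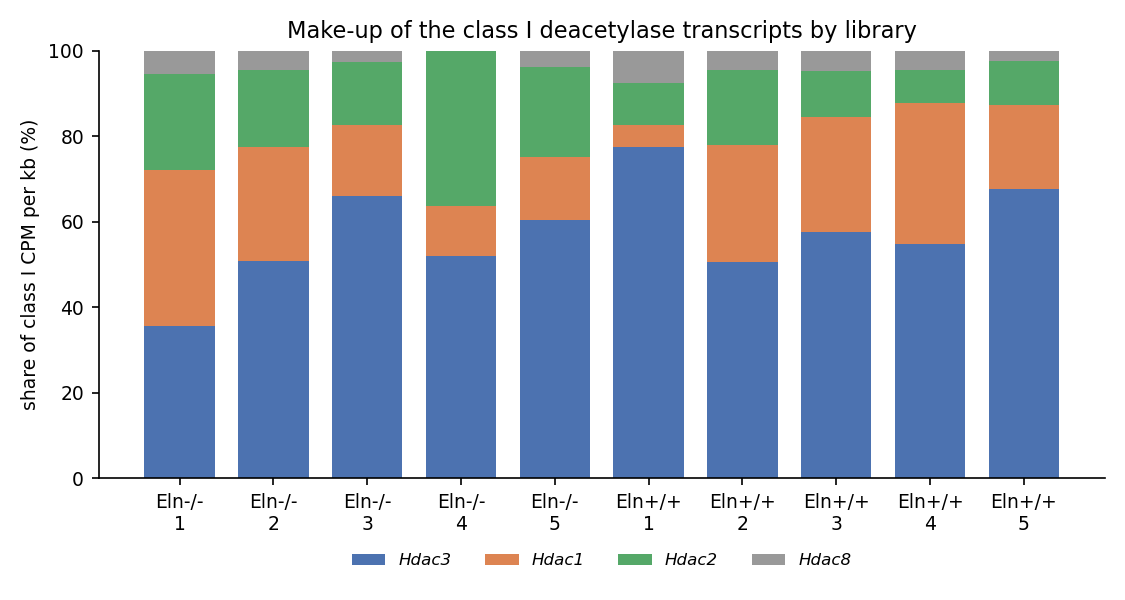
Share of each class I deacetylase in the summed class I level (CPM per kb of exon, in percent, vertical axis) in each library, with the 5 Eln-/- libraries on the left and the 5 Eln+/+ libraries on the right. Hdac3 (blue) is the largest part in all libraries but Eln-/- replicate 1, and Hdac2 (green) spans 14.7% to 36.2% in Eln-/- and 7.74% to 17.5% in Eln+/+.

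Class IIa deacetylases shuttle between nucleus and cytoplasm and repress MEF2 transcription factors. All 4 had positive fold changes, with a median of 0.75, where 51.5% of the genes tested were positive. Without Eln-/- replicate 1 this was 3 of 4, with a median of 0.32 and Hdac5 at -0.57. Hdac7, known for its role in vascular integrity, had both the highest mean level of the class (0.946 CPM per kb) and the smallest p. The gene maps to chr15:97792664-97844502 (minus strand). Hdac7 was at 14.5, 3.09, 2.75, 15.7 and 3.17 CPM in Eln-/- replicates 1 to 5, against 4.69, 1.34, 5.42, 7.89 and 5.37 CPM in Eln+/+ replicates 1 to 5. Eln-/- replicates 1 and 4 were above every Eln+/+ library, and the other 3 Eln-/- libraries lay within the Eln+/+ range. Its log2 fold change was 0.67 (SE 0.84). Hdac4 and Hdac5, the signal-responsive members, varied widely. Hdac4 was at 5.80 ± 5.43 CPM in Eln-/- cells, against 3.26 ± 3.37 CPM in Eln+/+ cells (log2 fold change 0.83, SE 1.30), and Hdac5 at 7.33 ± 7.77 and 5.95 ± 6.02 CPM. Hdac9, the enzyme gene with the lowest level per kb of the 31, had 490, 225, 0, 77 and 0 counts in Eln-/- replicates 1 to 5, against 0, 306, 0, 112 and 0 counts in Eln+/+ replicates 1 to 5. It was present in 3 Eln-/- and 2 Eln+/+ libraries (log2 fold change 1.56, SE 2.12). Exons of Hdac4 overlap the lincRNA Gm26720 on the other strand over 22.4% of their bases.

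Hdac6 and Hdac10 form class IIb, cytoplasmic enzymes of which Hdac6 deacetylates tubulin and Hdac10 polyamines, and Hdac11 is the only member of class IV. Hdac10 had the highest mean level per kb in this group (2.75 CPM per kb) and the smallest p. Its locus is chr15:89123307-89128700 (minus strand). Its levels were 13.8, 14.7, 19.0, 0.145 and 13.0 CPM in Eln-/- replicates 1 to 5, against 0, 5.45, 5.42, 9.53 and 11.7 CPM in Eln+/+ replicates 1 to 5. As with Hdac2, 4 of 5 Eln-/- libraries were above every Eln+/+ library and Eln-/- replicate 4, with 2 counts, was not. The log2 fold change of Hdac10 was 0.92 (SE 1.26), and 1.00 without the 3 gene-poor libraries. Hdac6, which is X-linked, was at 9.17 ± 8.30 CPM in Eln-/- cells, against 13.0 ± 9.16 CPM in Eln+/+ cells (log2 fold change -0.50, SE 0.99). Hdac11 was at 6.65 ± 7.67 CPM in Eln-/- cells, against 6.24 ± 6.67 CPM in Eln+/+ cells, and had at most 1 count in Eln-/- replicates 4 and 5 and Eln+/+ replicates 1 and 3.

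Sirtuins use NAD to deacetylate nuclear (Sirt1, Sirt6, Sirt7), cytoplasmic (Sirt2) and mitochondrial (Sirt3) proteins. Sirt2 had the highest mean level of the class, at 4.88 CPM per kb, and is encoded at chr7:28766735-28788661 (plus strand). Sirt2 was at 61.3, 33.2, 11.9, 0 and 5.50 CPM in Eln-/- replicates 1 to 5, against 0, 46.2, 28.1, 40.1 and 19.3 CPM in Eln+/+ replicates 1 to 5. The 3 lowest values were those of the 3 gene-poor libraries, and the log2 fold change was -0.26 (SE 1.45).

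Sirt6, a chromatin deacetylase involved in DNA repair, had the smallest p of the sirtuins and the steadiest level of all 31 genes, with a coefficient of variation of CPM of 0.339. The locus is chr10:81621785-81627797 (minus strand). Sirt6 was at 10.8, 10.3, 9.89, 9.08 and 9.27 CPM in Eln-/- replicates 1 to 5, against 2.18, 10.7, 7.65, 11.9 and 5.30 CPM in Eln+/+ replicates 1 to 5. The Eln-/- libraries fell within a narrow band inside the Eln+/+ range, and the log2 fold change was 0.39 (SE 0.65). Sirt7, a nucleolar sirtuin, was also even in Eln-/- at 17.4 ± 3.08 CPM, against 11.7 ± 7.32 CPM in Eln+/+, where replicate 3 had 1 count (log2 fold change 0.57, SE 0.99). Sirt1, which deacetylates p53 and histones, was at 5.46 ± 5.84 CPM in Eln-/- cells, against 6.94 ± 4.13 CPM in Eln+/+ cells.

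Sirt3 was high where Sirt2 was low. Its levels were 9.46, 15.8, 19.9, 37.0 and 43.6 CPM in Eln-/- replicates 1 to 5, against 57.9, 15.2, 15.5, 14.0 and 15.8 CPM in Eln+/+ replicates 1 to 5. Its 3 highest libraries were the 3 with the fewest detected genes, at 37.0 to 57.9 CPM against 9.46 to 19.9 CPM in the other 7. Between genotypes its log2 fold change was 0.09 (SE 0.62), and 0.01 with those 3 libraries left out. Exons of Sirt3 overlap Ric8a over 7.00% and Psmd13 over 5.73% of their bases, both on the other strand. In the same 3 libraries, Eln-/- replicates 4 and 5 and Eln+/+ replicate 1, Ric8a was at 0.363, 64.5 and 17.7 CPM and Psmd13 at 108, 339 and 185 CPM. In the other 7 libraries Ric8a was at 52.7 to 108 CPM and Psmd13 at 95.0 to 267 CPM. Psmd13 was thus highest in Eln-/- replicate 5, a gene-poor library, and Ric8a was highest outside them. Whether reads of either neighbour had a part in the Sirt3 values was not tested.

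Of the DNA methyltransferases, Dnmt1 had the highest mean level per kb, at 2.07 CPM per kb, closely followed by Dnmt3a at 1.91 CPM per kb, and each led the class in 5 of 10 libraries. Dnmt1 is encoded at chr9:20907209-20959888 (minus strand). It was at 49.3, 14.2, 4.56, 3.99 and 6.75 CPM in Eln-/- replicates 1 to 5, against 10.9, 25.4, 1.77, 18.8 and 16.7 CPM in Eln+/+ replicates 1 to 5. Eln-/- replicate 1 stood far above the other 4 Eln-/- libraries, and the log2 fold change of Dnmt1 was 0.10 (SE 0.88) with it and -1.00 without it. Dnmt3a averaged 33.7 ± 31.8 CPM in Eln-/- cells, against 29.8 ± 23.7 CPM in Eln+/+ cells, and was highest in Eln-/- replicate 1 (89.8 CPM) and Eln+/+ replicate 2 (68.1 CPM). The summed level of 18 S phase and mitosis genes, with which Dnmt1 is known to be expressed, was 1883 to 2375 CPM in Eln-/- and 1543 to 2209 CPM in Eln+/+, at 2043 CPM in Eln-/- replicate 1. This sum joins genes that differed in opposite directions in that library, where Mki67 (54.8 CPM), Top2a (173 CPM) and Mcm4 (138 CPM) had their highest values of all 10 libraries and Tyms (72.8 CPM) and Birc5 (98.4 CPM) their lowest. The part of the cell cycle in the Dnmt1 values was not tested.

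Dnmt3b, the methyltransferase of early development, had the smallest p of its class. The gene maps to chr2:153649450-153687730 (plus strand). Dnmt3b was at 4.34, 2.44, 0.959, 2.98 and 0 CPM in Eln-/- replicates 1 to 5, against 0, 2.86, 0.0203, 1.16 and 1.18 CPM in Eln+/+ replicates 1 to 5. The genotypes overlapped, with counts of 0 in 1 library of each, and the log2 fold change was 1.03 (SE 1.53). It was 0.59 without Eln-/- replicate 1, 1.85 without Eln+/+ replicate 2 and 2.12 with the exon length trend of each library removed, as described below.

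TET enzymes had the lowest summed level and wide spreads. Tet1, which had both the highest mean level per kb of the class (0.360 CPM per kb) and the smallest p, is encoded at chr10:62804570-62908996 (minus strand). It was at 14.5, 1.40, 0, 0.871 and 1.73 CPM in Eln-/- replicates 1 to 5, against 16.2, 12.0, 6.01, 2.79 and 0.201 CPM in Eln+/+ replicates 1 to 5. The genotypes overlapped, with 1 Eln-/- library below every Eln+/+ library and 1 Eln+/+ library above every Eln-/- library. The log2 fold change of Tet1 was -1.01 (SE 1.48), -2.89 without Eln-/- replicate 1 and 0.04 without the 3 gene-poor libraries. Tet2 was at 18.8 CPM in Eln-/- replicate 1, 0.377 to 2.16 CPM in the remaining Eln-/- libraries and 1.09 to 5.60 CPM in Eln+/+. Tet3 was at 17.4 CPM in Eln-/- replicate 1, 0.113 to 3.34 CPM in the remaining Eln-/- libraries and 0.0446 to 13.0 CPM in Eln+/+. With all libraries the log2 fold changes of Tet2 and Tet3 were 0.44 (SE 1.10) and 0.37 (SE 1.53), and without Eln-/- replicate 1 they were -1.47 and -1.26.

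**Figure D3:**
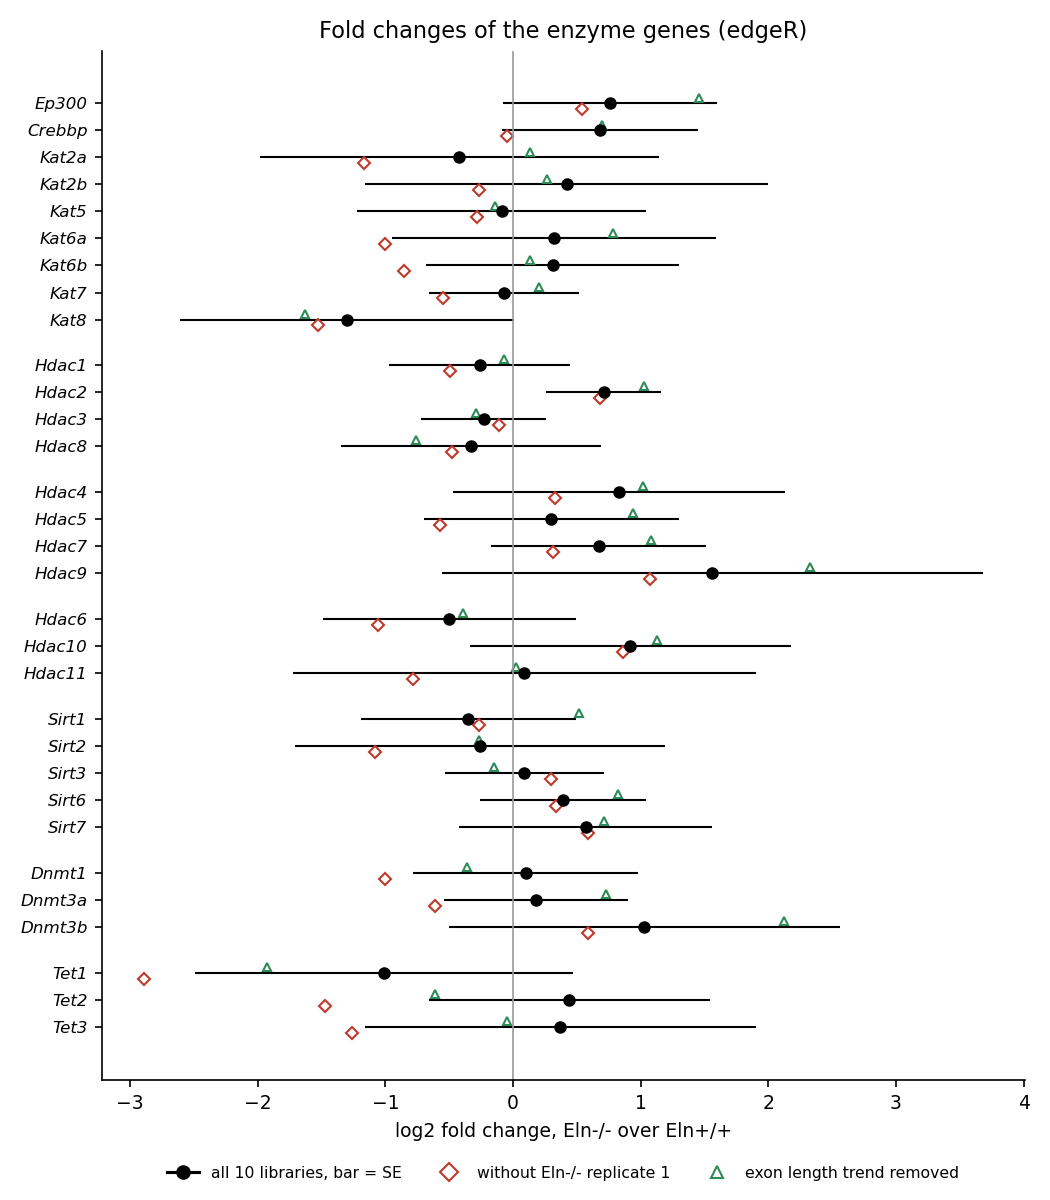
log2 fold change of each enzyme gene, Eln-/- over Eln+/+ (horizontal axis), with genes down the page by class. Black points are the edgeR estimates with all 10 libraries and their bars are SE, red diamonds the estimates without Eln-/- replicate 1, and green triangles those with the exon length trend of each library removed. Values run from -1.30 for Kat8 to 1.56 for Hdac9 with all libraries, and all 3 TET enzymes lie at -1.26 or below without Eln-/- replicate 1.

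Taking the 31 genes as a list, 20 had positive and 11 negative fold changes with all libraries, with a median of 0.30, and 51.5% of all genes tested were positive with a median of 0.02. Without the 3 gene-poor libraries 24 were positive (52.8% of all genes) with a median of 0.46. Without Eln-/- replicate 1 only 10 were positive (43.8% of all genes) and the median was -0.48, against -0.13 over all genes. The sign of the median thus turned when that library was left out.

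High values in Eln-/- replicate 1 were more frequent among the longer enzyme genes, though not limited to them. Of the 31 genes, 16 had their highest CPM of all 10 libraries in Eln-/- replicate 1. Among the 11 genes with 8 kb of exon or more (Ep300, Crebbp, Kat6a, Kat6b, Hdac4, Hdac5, Hdac9, Dnmt3a, Tet1, Tet2 and Tet3) this was so for 10, with Tet1 as the exception, and among the 20 shorter genes for 6. The same held across the table, where 45.6% of the 2228 tested genes of 8 kb or more and 17.6% of the 13476 shorter ones were highest in that library. Relative to each gene's median over libraries, genes of 8 kb or more had a median log2 CPM of 1.42 in Eln-/- replicate 1, and Eln+/+ replicate 2 came next at 0.96. The corresponding value was -1.12 and -1.96 in Eln-/- replicates 4 and 5 and -1.49 in Eln+/+ replicate 1, and -0.35 to 0.23 in the other 5 libraries. Genes under 2 kb, of which none is an enzyme gene here, showed the opposite order, at -0.74 in Eln-/- replicate 1, -0.48 in Eln+/+ replicate 2 and 0.64 to 0.78 in the 3 gene-poor libraries. The length limits were chosen after these values were seen.

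With the trend of log2 CPM on exon length removed within each library, also chosen after seeing the data, 19 of the 31 genes were positive (53.5% of all genes) with a median of 0.20, and 0 passed the threshold. The TET enzymes then had negative fold changes in 3 of 3 genes (median -0.61), where 2 of 3 were positive before. Fold changes of Hdac2 and Hdac10 were 1.03 and 1.13 in that fit, and those of Kat8 and Tet1 -1.63 and -1.93. Whether RNA quality or library preparation differed between libraries was not tested, as the labels give no measure of either.

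**Figure D4:**
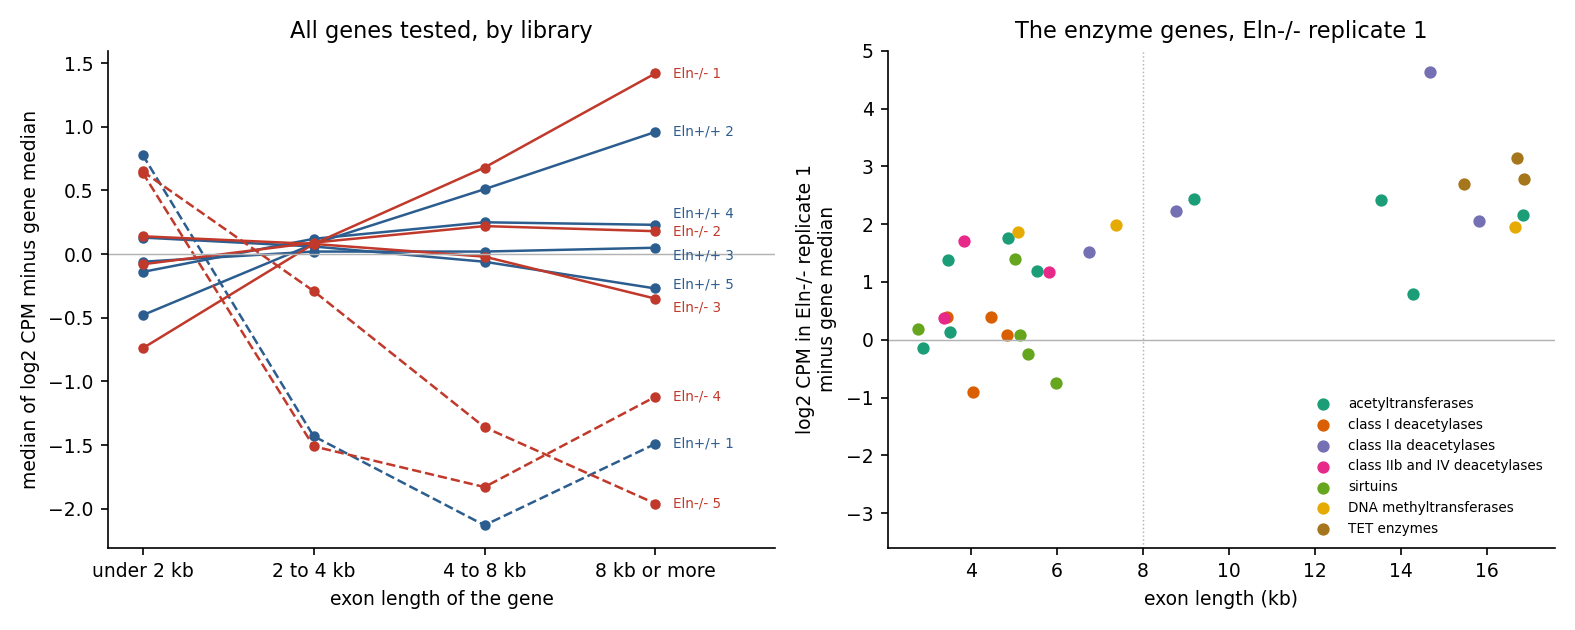
Exon length and library. Left, the median over all tested genes in 4 exon length classes (horizontal axis) of log2 CPM minus each gene's median over the 10 libraries (vertical axis), 1 line per library, red for Eln-/- and blue for Eln+/+, dashed for the 3 gene-poor libraries. Right, the same difference in Eln-/- replicate 1 for the 31 enzyme genes against their exon length in kb, coloured by class, with a dotted line at 8 kb. Long genes are highest in Eln-/- replicate 1 (median 1.42) and Eln+/+ replicate 2 (0.96).

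Partners of the enzymes were read from 6 lists, and none of their genes passed the threshold. Catalytic relatives (8 of 9 tested) had 4 positive and 4 negative fold changes. Of these, Ncoa3, a nuclear receptor coactivator, was at 6.48 ± 6.55 CPM in Eln-/- cells, against 3.82 ± 1.99 CPM in Eln+/+ cells, and the tRNA methyltransferase Trdmt1 at 5.26 ± 4.75 and 10.2 ± 4.96 CPM. Acetyltransferase complex subunits (23 of 25 tested) had 13 positive and 10 negative. Tada2b, an adaptor of the SAGA complex, had the smallest p of all the lists (unadjusted p = 0.0121, edgeR adjusted p = 1.00). It was at 4.65, 4.56, 1.98, 2.25 and 0 CPM in Eln-/- replicates 1 to 5, against 0, 0.287, 0.0406, 0 and 0.0668 CPM in Eln+/+ replicates 1 to 5. In 4 of 5 Eln-/- libraries Tada2b was above every Eln+/+ library (log2 fold change 4.97, SE 1.67, a fitted value against counts near 0). How many of all genes tested had 4 of 5 libraries so placed was not computed. Ing4, a reader subunit of the Kat7 complex, was at 31.0 ± 12.5 CPM in Eln-/- cells, against 53.3 ± 23.3 CPM in Eln+/+ cells (log2 fold change -0.78, SE 0.47).

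Deacetylase corepressor subunits (25 of 27 tested) had 13 positive and 12 negative fold changes and a median of 0.00. The Sin3 subunits Suds3 and Sap30 had the smallest p, with Suds3 at 21.2 ± 11.3 CPM in Eln-/- cells, against 7.22 ± 6.52 CPM in Eln+/+ cells, and Sap30 at 26.0 ± 30.7 and 12.7 ± 5.72 CPM. Acetyl-lysine readers (18 of 19 tested) had 15 positive and 3 negative and a median of 0.34, where 51.5% of all genes tested were positive. The bromodomain protein Brd2 was at 37.9 ± 46.6 CPM in Eln-/- cells, against 18.9 ± 9.05 CPM in Eln+/+ cells, with 120 CPM in Eln-/- replicate 1, and Brpf1, a scaffold of the Kat6 complex, at 2.34 ± 4.50 and 0.511 ± 0.574 CPM. The summed level of the readers was 853 CPM in Eln-/- replicate 1, 556 CPM in Eln+/+ replicate 2 and 138 to 325 CPM in the others. Exon lengths of the readers were not compared, and whether length had a part in this sum was not tested.

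Methyl-CpG binding and demethylation partners (18 of 18 tested) had 10 positive and 8 negative. Gadd45g and Gadd45b, stress-induced proteins linked to demethylation, were at 344 and 157 CPM in Eln-/- replicate 1. Elsewhere in Eln-/- (4 libraries) Gadd45g was at 8.08 to 10.2 CPM and Gadd45b at 6.17 to 28.9 CPM, and in Eln+/+ they were at 4.24 to 21.5 CPM and 3.11 to 23.7 CPM. The unadjusted p of Gadd45g was 0.0469 and its edgeR adjusted p 1.00. Cofactor supply genes (15 of 15 tested) make acetyl-CoA, NAD and S-adenosylmethionine or clear 2-hydroxyglutarate. They had 3 positive and 12 negative fold changes and a median of -0.38, where 51.5% of all genes tested were positive. The 2 with the smallest p were among the 3 positive ones and so went against most of the list. The citrate carrier Slc25a1 was at 44.5 ± 19.6 CPM in Eln-/- cells, against 30.7 ± 9.42 CPM in Eln+/+ cells (log2 fold change 0.53). Mat2a, which makes S-adenosylmethionine, was at 161 ± 57.1 and 119 ± 39.8 CPM (log2 fold change 0.43).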

How the data were processed

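Bulk mRNA libraries of sorted aortic smooth muscle cells (5 Eln-/-, 5 Eln+/+) were prepared with a kit for low RNA input (per the labels' protocols). The authors deposited 1 table of estimated counts per gene, not scaled for library size, with columns mapped by sample name. STAR, DESeq2 and build mm10 are named in the submitters' processing notes, without versions. Not given in the sources used here are the annotation, the counting program and whether strand was used. Values that were not whole (tolerance 1e-06) made up 23.5% to 48.8% per library, so the estimated counts were rounded.

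Genes were kept with edgeR's filterByExpr (minimum count 10), scaled with TMM factors and tested with edgeR's quasi-likelihood test on genotype (two-sided, Benjamini-Hochberg over all 15718 genes, threshold 0.05). The SE is the log2 fold change divided by the square root of F. CPM used TMM-scaled library sizes, and log2 CPM a prior count of 2. Exon length is the union of exons in GENCODE M21 (GRCm38, also called mm10), whose spans equalled 98.8% of the table's after 1 base was taken from each end coordinate. Annotated exons may not all be used in these cells. Alternatives were RLE factors, DESeq2, limma-voom without and with sample quality weights, no count filter, the replicate block, single libraries left out, the 3 libraries with the lowest numbers of detected genes (gene-poor) left out and exon length trend removal. Values per library are given for the member of each class with the highest mean CPM per kb and the one with the smallest p, and for Hdac9 and Sirt3, chosen after their values were seen. Each partner list names its 2 genes with the smallest p. The members, lists and alternatives were chosen with earlier results of these data known. The test was run on simulated data with known changes, where at the observed spread it called part of the largest changes and none of the smaller ones. The listed symbols Mideas and Cdh1, were not matched. Software was edgeR 4.0.16, DESeq2 1.42.0 and limma 3.58.1 under R 4.3.3.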

Additional observations from a re-analysis of the deposited data

Results flagged for a closer look

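Within a genotype, 10 of 62 sets of 5 values had a library far from the others. Chance gives about 1 in 20 for normally distributed values, and its rate for CPM, which are skewed, was not computed. The share of such sets over all genes tested was not computed either, so no excess is read from this count. Of these, 6 were high values in Eln-/- replicate 1. Kat6a was at 10.7 CPM there, and its next highest Eln-/- library was at 2.98 CPM. Dnmt1 was at 49.3 CPM, against 3.99 to 14.2 CPM, and Dnmt3a at 89.8 CPM, against 10.9 to 23.5 CPM. Tet1 was at 14.5 CPM, against 0 to 1.73 CPM, Tet2 at 18.8 CPM, against 0.377 to 2.16 CPM, and Tet3 at 17.4 CPM, against 0.113 to 3.34 CPM. These 6 genes have 7.38 kb (Dnmt1) to 16.9 kb (Tet2) of exon. Genes of 8 kb or more, a class without Dnmt1, were high in that library across the table. Whether exon length had a part in these 6 values was not tested.

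Tet3 was also high in Eln+/+ replicate 2, at 13.0 CPM, where the rest of Eln+/+ spanned 0.0446 to 3.26 CPM. Sirt1 was at 15.8 CPM in Eln-/- replicate 4, against 1.92 to 4.02 CPM, and at 14.1 CPM in Eln+/+ replicate 3, where the rest of Eln+/+ spanned 3.25 to 5.89 CPM. Sirt3 was at 57.9 CPM in Eln+/+ replicate 1, where the rest of Eln+/+ spanned 14.0 to 15.8 CPM.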

How the results depend on the processing

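None of the 31 enzyme genes was called in any of the 18 alternatives, where the smallest adjusted p of any of them was 0.475. DESeq2 gave no p for Tet2, so Tet2 could not be called in that alternative. Genes called over the whole table numbered 0 as reported, 6 with DESeq2, 2 with limma-voom (Eln and Tmem91), 7 with limma-voom weighted by sample quality, 1 (Eln) with the exon length trend removed, and 0 to 1 when single libraries were left out, the 1 being Eln without Eln-/- replicate 1. Over the enzyme genes the median log2 fold change, 0.30 as reported, was -0.20 with limma-voom weighted by sample quality, -0.25 with the replicate block and -0.48 to 0.47 when single libraries were left out, turning without Eln-/- replicate 1 only. The cause was not tested.

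For the 11 genes named by rule, 181 of 198 fold changes kept their direction. Kat7 turned to 0.11 without the 3 gene-poor libraries, to 0.20 with the length trend removed, and to positive without Eln-/- replicate 3 or 5 or Eln+/+ replicate 2 or 4 (range -0.55 to 0.21 over single libraries). Dnmt1 turned to -0.29 with quality weights, -0.21 with the replicate block, -0.36 with the length trend removed, and to negative without Eln-/- replicate 1 or Eln+/+ replicate 3 (-1.00 to 0.39). Sirt2 and Tet1 turned to 0.11 and 0.04 without the 3 gene-poor libraries, and Sirt2 to positive without Eln-/- replicate 4 or Eln+/+ replicate 2 (-1.08 to 0.07). Hdac7 turned to -0.40 with quality weights and Hdac3 to 0.01 without Eln-/- replicate 4 (-0.49 to 0.01).

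No consistent pairing of libraries by replicate number was seen. Whether a number marks a shared litter or batch was not tested and is not given by the labels. Deviations from the genotype means correlated at -0.556 to 0.510 across genes for the same number, above 0.1 in 2 of 5 pairs, and 1 of 5 Eln-/- libraries correlated best with its own number. Between different numbers, the gene-poor Eln-/- replicate 4 and Eln+/+ replicate 1 correlated at 0.546. With the replicate block edgeR called 0 genes, and 71 had an unadjusted p under 0.05, against 81 without it. In the 3 gene-poor libraries 25.8% to 32.3% of the enzyme genes and 25.5% to 33.7% of all genes tested had under 10 counts, against 0% to 12.9% and 2.19% to 13.5% in the others, and the cause was not tested.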

Other observations

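Several cell cycle genes stood apart in the 3 libraries with few detected genes. Birc5, a mitotic survivin, was at 416 and 299 CPM in Eln-/- replicates 4 and 5 and 367 CPM in Eln+/+ replicate 1, while the other 7 libraries spanned 98.4 to 172 CPM. Tyms, which makes thymidylate, was at 501, 379 and 427 CPM in the same 3 libraries and 72.8 to 173 CPM in the others, and the mitotic kinase Cdk1 at 441, 299 and 240 CPM against 83.6 to 194 CPM. The replication helicase subunits Mcm2 and Mcm5 took the opposite course, at 0.290, 15.5 and 0.331 CPM for Mcm2 and 0.145, 42.5 and 3.17 CPM for Mcm5 in those 3 libraries, against 40.0 to 97.3 CPM and 81.8 to 119 CPM in the others. None of these 5 genes passed the threshold between Eln-/- and Eln+/+ with edgeR (adjusted p = 1.00 for each), and they were chosen after their values were seen. Relative to each gene's median over libraries, genes under 2 kb had a median log2 CPM of 0.64 to 0.78 in those 3 libraries. Genes of 2 to 4 kb were at -1.51, -0.29 and -1.43 in the same order of libraries. Whether exon length had a part in the values of the 5 genes was not tested.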
